A study of Homo sapiens with 16 samples.

Results

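The ATP-binding cassette (ABC) transporter family was taken as every gene symbol made of ABCA, ABCB, ABCC, ABCD, ABCE, ABCF or ABCG followed by digits only. The rule found 46 members among 35993 symbols. Of these, 43 passed the filter on low counts and were tested among 21297 genes. The 3 untested members were ABCC12, ABCG5 and ABCG8. A further 6 tested members (ABCA8, ABCB5, ABCC8, ABCC11, ABCC13 and ABCG4) passed the filter only through treated groups, so a rise was the main change that could be seen in them. ABCC13 is a transcribed pseudogene in RefSeq, and every other member was given 1 of 9 roles from general knowledge.

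The data are RNA-seq counts from TCCSUP, RT112, J82 and 253J cells, established lines from human bladder cancers, all labelled wild type and grown in culture, TCCSUP in another medium than the other lines. Each line was given CM-1758, a histone deacetylase (HDAC) inhibitor, at its own IC50 for 48 h, or vehicle (DMSO at 0.01%) for the same time. Each of the 8 groups held 2 libraries, which the study's methods describe as independent experiments, so p-values measure the spread between these. The dose differed between lines, and a difference in response between lines cannot be told apart from a difference in dose.

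ABC proteins bind and hydrolyse ATP on paired nucleotide-binding domains, and in most members this drives a substrate across a membrane. ABCB1, ABCG2 and several ABCC members pump drugs and their conjugates out of cells and are studied as causes of resistance to chemotherapy. Others export sterols and phospholipids, bring very-long-chain fatty acids into peroxisomes or carry haem precursors and peptides across inner membranes, and the ABCE and ABCF proteins have no membrane domain and act on ribosomes. HDACs remove acetyl groups from histones, and their inhibitors are known to raise and lower transcripts of many genes.

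Total counts ran from 27655401 to 32537104 in the control libraries and from 22506431 to 31547585 in the treated ones. The members held 0.135% to 0.202% of the counts in control libraries and 0.149% to 0.191% in treated ones. Between 35 and 38 members had a count in a control library and between 39 and 45 in a treated one, although the treated libraries were the shallower set in median. The 2 libraries of a group correlated at 0.983 to 0.991 on log2 CPM, and the J82 control pair differed most in counts. Of 13 urothelial and epithelial markers, 12 were above 1 CPM in RT112 controls, 8 in TCCSUP, 6 in J82 and 5 in 253J, and UPK2, UPK3A and KRT5 were at 0 in both 253J and J82. These 13 summed to 2885.3, 6590.5, 6325.4 and 1195.3 CPM in 253J, J82, RT112 and TCCSUP controls. After treatment the sums were 1045.3, 6706.3, 5093.9 and 252.7 CPM in the same order. Of 10 markers of leukocytes, endothelium and adipocytes, 1 was above 1 CPM in 253J controls and 3 in each other line. Their summed level was 8.63, 51.5, 8.99 and 41.8 CPM in 253J, J82, RT112 and TCCSUP controls and 35.4, 19.9, 10.4 and 26.5 CPM after treatment. Of these 10 markers, 3 were at 0 in every library of J82 and 1 in every library of each other line. The part of these genes in the results below was not tested.

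In control cells the members differed widely between the 4 lines. The control level differed between lines for 37 of 43 tested members, against 78.8% of all tested genes by the same F test of edgeR with Benjamini-Hochberg adjustment. The 3 members with the highest mean control level per length were ABCF2, ABCE1 and ABCF1, which act in translation, at 27.9, 23.3 and 22.8 CPM per kb of exon. A drug efflux pump led in only 2 lines. ABCB1 led in 253J at 37.6 ± 2.01 CPM per kb (SD, n = 2), and ABCF2, at 34.8 ± 7.20, lay below it by less than its own SD. ABCG2 led in TCCSUP at 54.3 ± 2.99 CPM per kb, above ABCA1 at 39.0 ± 5.01. In J82 the first was ABCF1 at 43.3 ± 0.13 CPM per kb, and in RT112 it was the mitochondrial transporter ABCB10 at 25.7 ± 1.28.

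**Figure D1:**
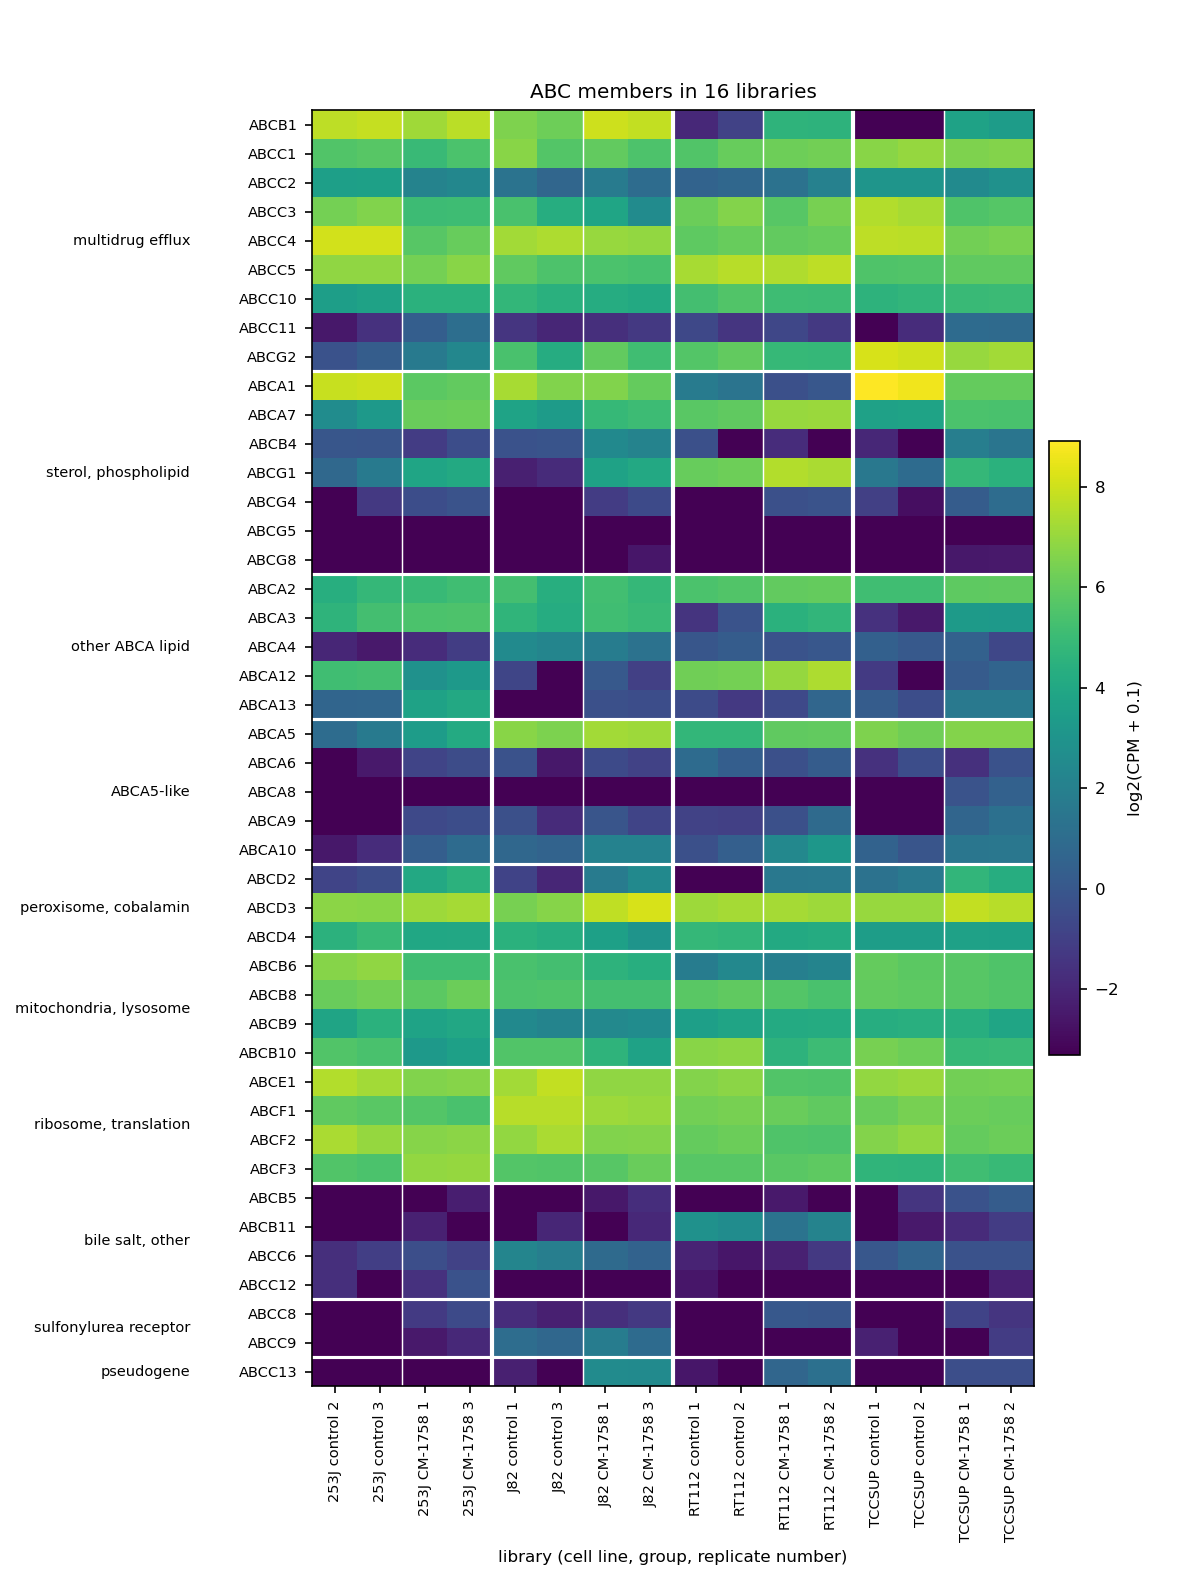
Each row is 1 of 44 ABC members, grouped by role, and each column 1 of the 16 libraries, with 4 libraries per line (2 control, then 2 CM-1758); colour is log2(CPM + 0.1). ABCB1 is dark in the RT112 and TCCSUP control columns and lighter in the treated ones, ABCA1 is brightest in TCCSUP controls, and ABCG5 is at 0 throughout.

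After 48 h of CM-1758 members moved in both directions in every line. In 253J, 15 members rose and 10 fell, where 28.8% of all tested genes rose and 22.4% fell. In J82, 11 rose and 10 fell, against 24% and 18.5% of all genes. In RT112, 13 rose and 8 fell, against 27.4% and 20.2%. In TCCSUP, 18 rose and 8 fell, against 32% and 22.1%. These member counts lie near what the shares of all genes would give for 43 members, so they are not read as a property of the family. Without the 6 members that passed the filter only through treated groups, 13 of 37 rose in both TCCSUP and 253J, 10 in RT112 and 9 in J82, and the counts of falls were as above. Among the 17994 genes with a control group over the filter, 28.5%, 27.8%, 26.1% and 24.3% rose in these lines. The count of 18 in TCCSUP thus held 5 of those 6 members. Scaling by library size alone, which moved the median of all genes up by 0.15 to 0.31 log2, gave 13 against 7 in J82, 16 against 6 in RT112 and 22 against 5 in TCCSUP. In these bulk libraries a change in how many cells carry a transcript and a change in its amount per cell cannot be told apart.

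The median log2 fold change of the members was 0.44 in 253J, 0.35 in TCCSUP, 0.29 in J82 and 0.08 in RT112, beside 0.10, 0.20, 0.05 and 0.12 for all tested genes. With members at 0 in the controls set to their lower bound, the medians were 0.43, 0.35, 0.30 and 0.10 in the same order. Over the 37 members with a control group over the filter they were 0.43, 0.15, 0.18 and 0.06, beside 0.00, 0.04, 0.00 and 0.01 for all genes of that kind. A stricter rule asked for a change of more than 2 on the log2 scale in either direction together with an adjusted p under 0.01. By this rule 253J had 10 members up and 4 down, against 9.43% and 3.5% of all genes. J82 had 5 up and 0 down (8.81% and 1.24% of all genes), RT112 7 up and 0 down (11.4% and 1.39%) and TCCSUP 11 up and 1 down (14.2% and 3.31%). The count of 14 in 253J was 9 without control replicate 2. Over all lines 24 members rose in at least 1 line, 16 fell in at least 1, 4 did both and 7 passed in none. Of all tested genes 55.6% rose in at least 1 line, 40.6% fell in at least 1, 12.9% did both and 16.7% passed in none. ABCA7, ABCA10, ABCD2 and ABCG1 rose in all 4 lines, and ABCA1, ABCB10, ABCE1 and ABCF2 fell in all 4, as did 6.69% and 6.01% of all tested genes in these directions. Calls of ABCA10, ABCA1, ABCE1 and ABCF2 were each lost in at least 1 line under some setting, as given below. The response differed between lines for 26 of the 43 members, where 51.9% of all tested genes did so.

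**Figure D2:**
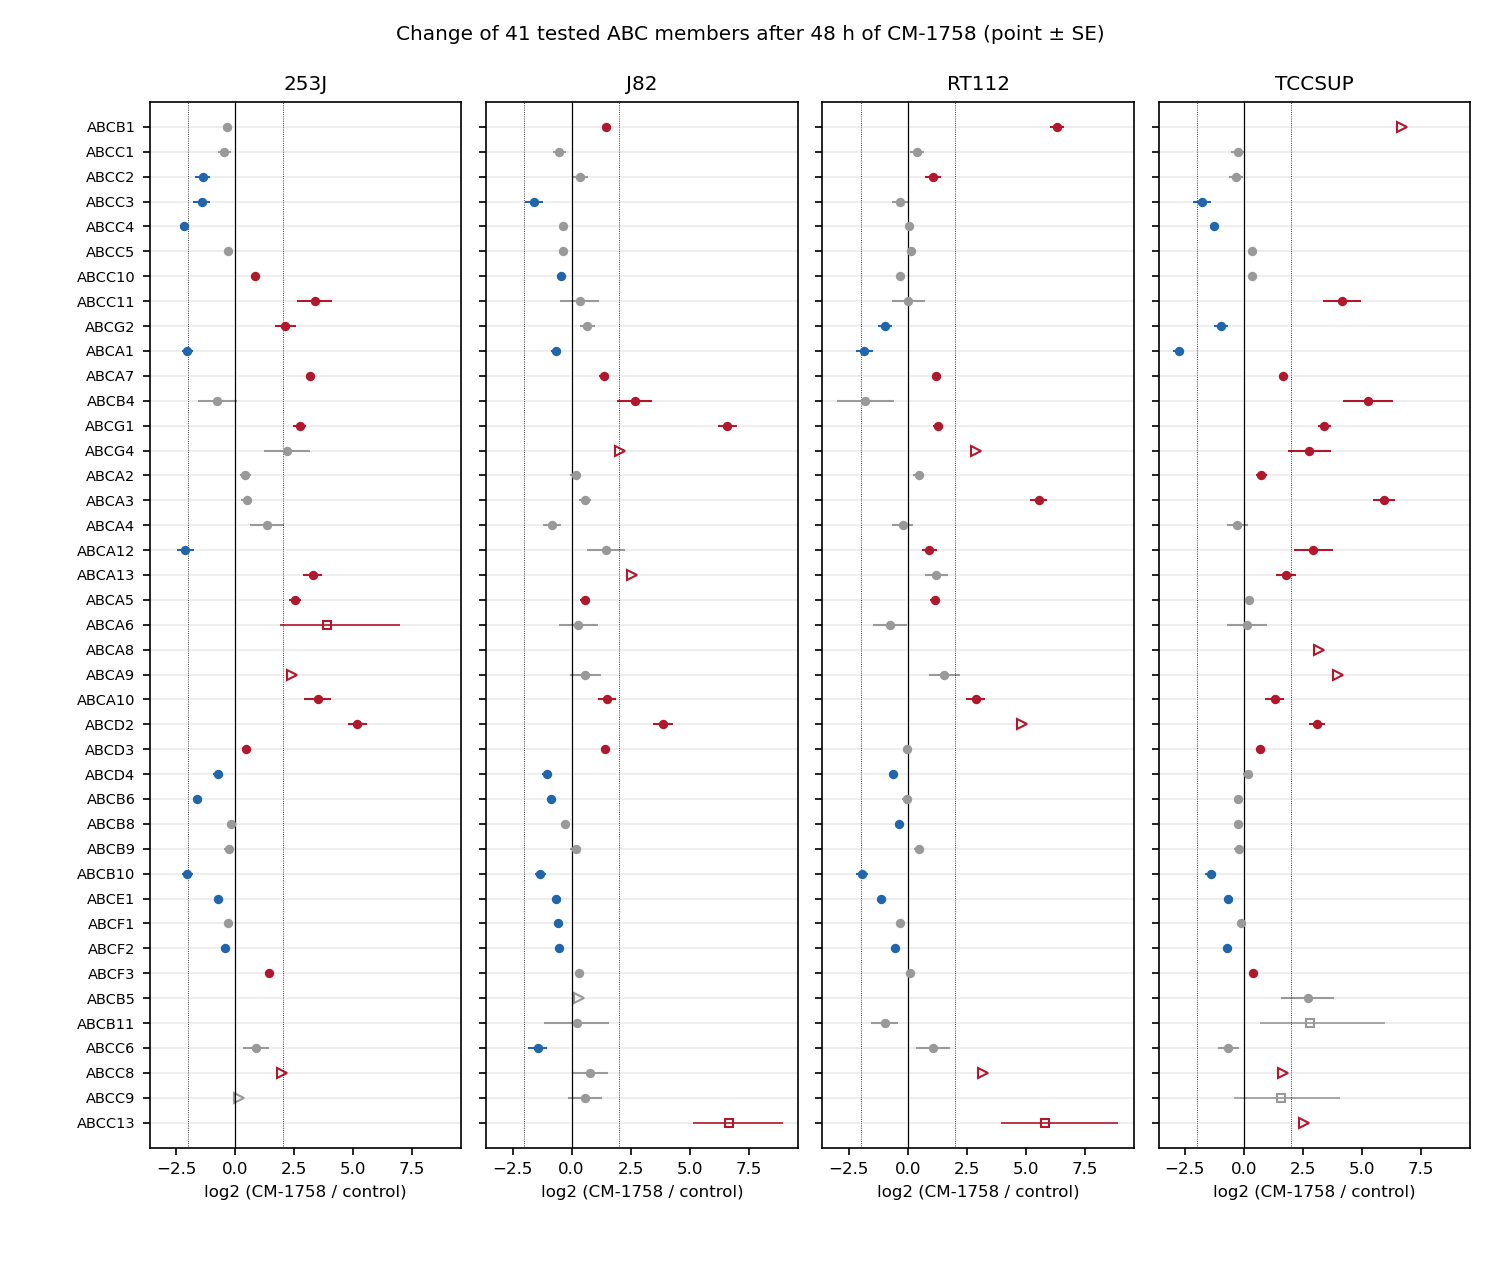
Each point is the log2 fold change of CM-1758 over control for 1 of 41 tested members in 1 line, with bars of ± 1 SE; red rose, blue fell, grey did not pass, and dotted lines mark 2 and -2. Open triangles are lower bounds for members at 0 in both controls, open squares are count ratios with their 95% counting interval, and members at or under the floor in both groups have no point. ABCD2 lies to the right and ABCB10 to the left of 0 in all 4 panels, and ABCB1 runs from -0.34 in 253J to far right in RT112 and TCCSUP.

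Promoter sequences are shown for members of the sets that moved together in all 4 lines, and for ABCB1, since they give the letters upstream of genes that moved in opposite directions. RefSeq windows of GRCh38.p14 matched 35 of the 46 members, 3 of the 4 that rose in all lines and all 4 that fell in all lines. Each run holds the 250 bases before the start, read 5′ to 3′ on the strand of the gene. Capitals mark every CCAAT box (CCAAT or ATTGG) and every GC box (GGGCGG or CCGCCC), searched on both strands. The printed windows are examples. The ABCA10 window printed holds no such letters, and that of its second start, not printed, holds 2 CCAAT boxes. The windows of the second ABCD2 start and the upstream ABCB1 start, not printed, hold neither box. Of the members that fell in all lines and are not printed, ABCE1 holds neither box and ABCF2 holds 1 of each. The first 3 rose in all lines, the next 2 fell in all lines, and the last is the downstream of 2 ABCB1 starts.
ABCA7, chr19:1039857-1040106, plus strand: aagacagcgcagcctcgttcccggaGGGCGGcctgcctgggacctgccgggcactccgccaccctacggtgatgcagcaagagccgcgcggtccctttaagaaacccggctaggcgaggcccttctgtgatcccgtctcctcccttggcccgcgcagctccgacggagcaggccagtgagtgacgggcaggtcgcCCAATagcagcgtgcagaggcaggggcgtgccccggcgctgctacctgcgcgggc
ABCD2, first listed start, chr12:39619804-39620053, minus strand: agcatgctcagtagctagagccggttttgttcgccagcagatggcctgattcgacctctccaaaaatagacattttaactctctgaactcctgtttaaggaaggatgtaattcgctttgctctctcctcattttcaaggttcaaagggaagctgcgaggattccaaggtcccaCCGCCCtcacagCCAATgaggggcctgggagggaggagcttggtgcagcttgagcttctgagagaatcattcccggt
ABCA10, first listed start, chr17:69244849-69245098, minus strand: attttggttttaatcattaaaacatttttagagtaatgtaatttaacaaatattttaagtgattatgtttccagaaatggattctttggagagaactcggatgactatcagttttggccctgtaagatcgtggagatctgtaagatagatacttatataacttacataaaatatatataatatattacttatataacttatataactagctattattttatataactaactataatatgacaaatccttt
ABCA1, chr9:104928156-104928405, minus strand: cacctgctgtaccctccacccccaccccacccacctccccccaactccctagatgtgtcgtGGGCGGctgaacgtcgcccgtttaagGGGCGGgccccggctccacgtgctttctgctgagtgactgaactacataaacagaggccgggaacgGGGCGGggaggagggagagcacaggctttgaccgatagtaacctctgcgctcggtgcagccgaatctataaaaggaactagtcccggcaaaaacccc
ABCB10, chr1:229558708-229558957, minus strand: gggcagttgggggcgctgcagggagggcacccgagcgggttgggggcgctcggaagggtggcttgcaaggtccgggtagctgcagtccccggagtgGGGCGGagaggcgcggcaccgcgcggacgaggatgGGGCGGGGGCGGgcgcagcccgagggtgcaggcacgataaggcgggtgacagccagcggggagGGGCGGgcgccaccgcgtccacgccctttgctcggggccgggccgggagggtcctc
ABCB1, downstream start, chr7:87600885-87601134, minus strand: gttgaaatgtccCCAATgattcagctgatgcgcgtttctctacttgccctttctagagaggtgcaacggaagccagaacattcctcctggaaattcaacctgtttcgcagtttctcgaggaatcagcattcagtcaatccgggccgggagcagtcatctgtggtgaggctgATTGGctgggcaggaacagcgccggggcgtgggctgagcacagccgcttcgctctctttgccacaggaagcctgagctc
CCAAT letters were in 32.0% and GC box letters in 42.6% of all 35116 windows of this length. Among the 53 member windows they were in 11 and 25, among the 5 windows of members that rose in all lines in 3 and 2, and among the 4 of members that fell in all lines in 1 and 3. The number of CG dinucleotides was 25 in the ABCA7 window but 7 in that of ABCD2 and 2 in that of ABCA10, and 16 and 29 in those of ABCA1 and ABCB10, where the median window held 11. The 4 windows of the members that fell in all lines held 16 to 29. A match is a description of letters, not a site of binding, and which starts were used in these cells was not tested.

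Among the multidrug efflux pumps, ABCB1 (P-glycoprotein) had the widest range of responses. In TCCSUP it had 0 counts in both controls and 352 and 276 counts after CM-1758, at least 103-fold higher against a floor of 3 counts per library (adjusted p = 9.33e-09, edgeR). In RT112 it went from 5 and 13 counts to 642 and 626, an 80.5-fold rise (log2 fold change 6.33 ± 0.31 SE, adjusted p = 6.85e-09). In J82, where the controls already held 93.9 and 75.4 CPM, the treated libraries held 249 and 219 CPM, 2.76-fold more (1.47 ± 0.19, adjusted p = 3.93e-05). The groups did not overlap in any of these 3 lines, nor in 253J, where the change did not pass. In 253J, the line with the highest control level, ABCB1 was at 210 and 227 CPM in controls and 146 and 199 CPM after treatment, and the log2 fold change of -0.34 ± 0.19 did not pass (adjusted p = 0.148). Without CM-1758 replicate 3 the 253J value was -0.59 and passed as a fall (adjusted p = 0.0497). The difference of the response between 253J and J82 was -1.81 ± 0.27 on the log2 scale (adjusted p = 1.83e-04), and the interaction over all 4 lines had an adjusted p of 2.21e-08. After treatment J82 was at the level of 253J controls, while treated RT112 and TCCSUP were at 25.1 and 23.9 CPM and at 13.2 and 10.9 CPM.

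ABCG2, the breast cancer resistance protein, rose in 253J, which had its lowest control level, and fell in TCCSUP, which had its highest, and in RT112. In 253J it had 21 and 29 counts in controls and 80 and 146 after treatment, 4.35-fold more (log2 fold change 2.12 ± 0.45 SE, adjusted p = 1.13e-03, edgeR). In TCCSUP the controls held 285 and 263 CPM and the treated libraries 130 and 147 CPM, a log2 fold change of -0.98 ± 0.30 (adjusted p = 0.0126). RT112 gave nearly the same value, from 50.6 and 63.0 CPM to 29.4 and 28.4 CPM (-0.97 ± 0.31, adjusted p = 0.0169). In J82 the groups overlapped, at 42.7 and 19.1 CPM against 62.0 and 36.0 CPM, and 0.67 ± 0.31 did not pass. The J82 value passed as a rise without control replicate 1 (1.36, adjusted p = 1.80e-03) or CM-1758 replicate 3 (adjusted p = 0.0267). The response in 253J differed from that in TCCSUP by 3.11 ± 0.54 and from that in RT112 by 3.10 ± 0.55. The fall in TCCSUP lost its call without control replicate 1 (-0.93) or CM-1758 replicate 1 (-0.91) and under library size scaling (-0.67), and that in RT112 without control replicate 2 (-0.81) or either treated library.

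**Figure D3:**
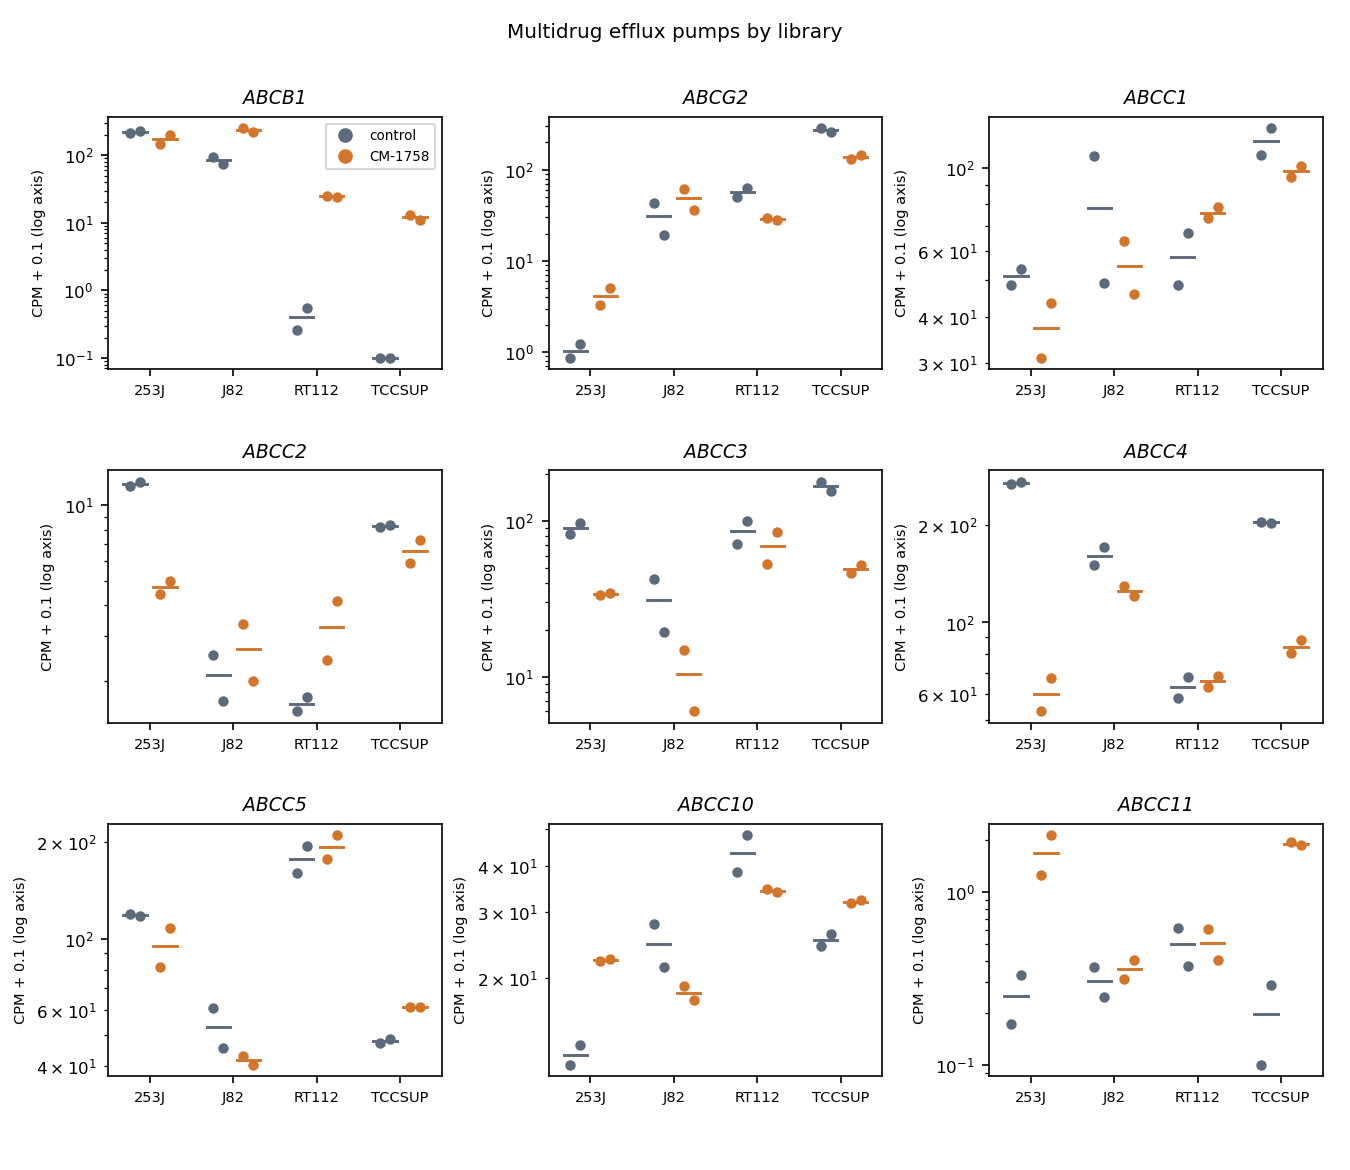
Each panel is 1 of the 9 efflux pumps; the vertical axis is CPM + 0.1 on a log axis that differs between panels, dots are libraries, short lines are means of 2, grey is control and orange CM-1758. ABCB1 sits at the bottom in TCCSUP controls and near 10 CPM after treatment, and ABCG2 moves up in 253J and down in TCCSUP.

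Of 28 values of the 7 ABCC pumps, exporters of organic anions and conjugates, in the 4 lines, 7 were falls, 4 were rises and 17 did not pass, where 20.8% and 28.1% of such values over all tested genes were falls and rises. Of the 4 rises, 2 were of ABCC11, which passed the filter only through treated groups. ABCC4, an exporter of cyclic nucleotides and drugs, went from 268 and 272 CPM to 52.9 and 67.4 CPM in 253J (log2 fold change -2.17 ± 0.15 SE, adjusted p = 4.48e-08, edgeR). In TCCSUP it went from 205 and 204 CPM to 80.1 and 88.1 CPM (-1.28 ± 0.14, adjusted p = 3.72e-06). It did not pass in J82 (-0.36 ± 0.14, adjusted p = 0.0519) or in RT112 (0.06 ± 0.14), where the groups overlapped. The J82 value passed as a fall without control replicate 1 (-0.45) and with the replicate block (-0.36). The response in 253J minus that in TCCSUP was -0.89 ± 0.20 on the log2 scale (adjusted p = 3.69e-03).

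ABCC3, a basolateral exporter of conjugated organic anions, fell in 3 lines. Its log2 fold changes were -1.42 ± 0.37 in 253J, -1.59 ± 0.38 in J82 and -1.77 ± 0.37 in TCCSUP, with -0.31 ± 0.36 and overlapping groups in RT112. In TCCSUP the levels were 179 and 157 CPM in controls and 46.2 and 51.9 CPM after treatment. The J82 controls were far apart, at 42.4 and 19.3 CPM, and without control replicate 1 the J82 value was -0.92 and did not pass. The interaction did not pass for ABCC3 (adjusted p = 0.0868), and of the 3 falls only that in TCCSUP differed from the RT112 value in its pairwise test, by 1.46 ± 0.51 (adjusted p = 0.0449).

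ABCC2, which exports conjugates into bile and urine, moved in opposite directions. In 253J it went from 11.9 and 12.3 CPM to 4.32 and 4.89 CPM (log2 fold change -1.39 ± 0.31 SE, adjusted p = 1.45e-03, edgeR). In RT112 it went from 1.41 and 1.63 CPM to 2.31 and 4.04 CPM (1.07 ± 0.34, adjusted p = 0.0169). The RT112 call rested on CM-1758 replicate 2, without which the value was 0.60, and it was also lost without control replicate 1 (0.96) or 2 (1.17). The 2 responses differed by -2.46 ± 0.46 (adjusted p = 8.43e-04).

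ABCC10, an exporter that acts on taxanes, rose in 253J from 11.6 and 13.2 CPM to 22.1 and 22.4 CPM (log2 fold change 0.84 ± 0.16 SE, adjusted p = 3.67e-04, edgeR). In J82 it fell by a small margin, from 27.8 and 21.3 CPM to 19.0 and 17.4 CPM (-0.43 ± 0.15, adjusted p = 0.0328). The J82 call was lost without control replicate 1 (-0.23) or either treated library (-0.42 and -0.37), and under most other settings. The 253J and J82 responses differed by 1.28 ± 0.22 (adjusted p = 4.48e-04). In TCCSUP ABCC10 had a mean of 25.2 CPM in controls and 32.0 CPM after treatment and did not pass. It passed there as a rise with RLE (0.39) or library size scaling (0.65) and in DESeq2 with all groups (0.39). The same held with the line fitted alone in edgeR (0.33) or DESeq2 (0.35). The RT112 value of -0.34 did not pass, but was a called fall without control replicate 1 (-0.50).

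ABCC11, an exporter of lipophilic anions, was near the floor in all controls and passed the filter only through treated groups. It had 2 and 6 counts in 253J controls against 29 and 60 after treatment (log2 fold change 3.37 ± 0.74 SE, adjusted p = 1.40e-03, edgeR), and 0 and 5 against 49 and 45 in TCCSUP (4.15 ± 0.79, adjusted p = 4.74e-04). In J82 and RT112 no library had more than 16 counts, the groups overlapped and the values were 0.34 ± 0.82 and 0.03 ± 0.71. ABCC1, the founding member of its subfamily, and ABCC5, an exporter of nucleotide analogues, passed in no line in the reported fit. Their log2 fold changes ran from -0.52 to 0.39 for ABCC1 and from -0.35 to 0.35 for ABCC5. Without J82 control replicate 3 both passed as falls in J82, ABCC1 at -0.97 (adjusted p = 3.84e-03) and ABCC5 at -0.54, and without CM-1758 replicate 3 ABCC5 passed in 253J (-0.54). In TCCSUP ABCC5 passed as a rise with library size scaling (0.66) and in DESeq2 with all groups (0.40) or the line alone (0.36). With the line fitted alone, ABCC1 passed as a fall in 253J in edgeR (-0.47) or DESeq2 (-0.46) and in TCCSUP in edgeR (-0.28). In RT112 it passed as a rise in DESeq2 with the line alone (0.40). With the replicate block ABCC1 and ABCC5 passed as falls in J82 (-0.43 and -0.34).

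The pump with the highest level per length differed between the lines, and its share in each group is given without a test. In 253J controls ABCB1 made up 38.1% of the summed CPM per kb of the 9 pumps and ABCC4 31.7%, and after treatment ABCB1 made up 51.4% and ABCC4 12.1%. The level of ABCB1 itself was 37.6 CPM per kb in 253J controls and 29.6 after treatment, so its larger share was not a rise. In J82 the first pump was ABCC4 at 30.6% in controls and ABCB1 at 51.0% after treatment. In RT112 ABCC5 was first in both groups, at 27.6% and 30.0%, and ABCB1 went from 0.0924% to 7.49%. In TCCSUP ABCG2 was first in both, at 45.5% and 40.6%, and ABCB1 reached 3.06%. The summed level of the pumps was 95.9 and 102 CPM per kb in 253J controls against 50.0 and 65.3 after treatment, and 121 and 117 against 64.9 and 70.4 in TCCSUP. In J82 the sums were 69.7 and 51.9 in controls and 86.6 and 71.5 after treatment, and in RT112 they overlapped, at 49.7 and 62.9 against 52.7 and 60.0. With 2 libraries against 2 an exact two-sided permutation test cannot give a p below 0.333, so the sums are given without a test.

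**Figure D4:**
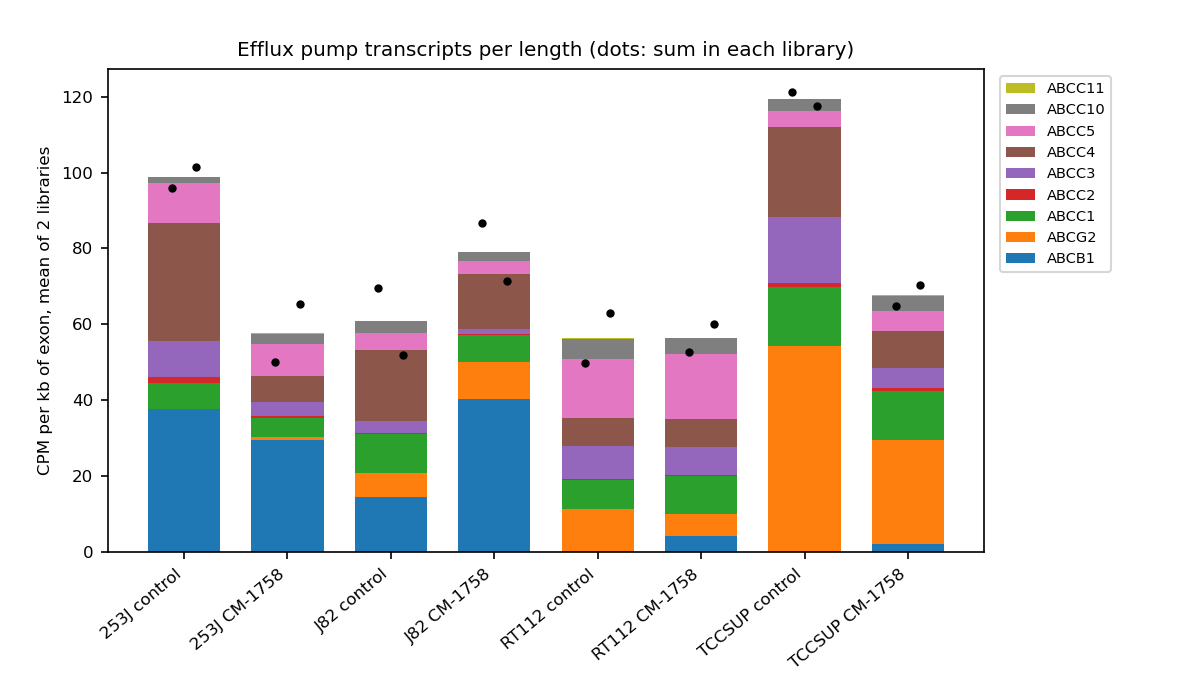
Bars are the mean of 2 libraries in CPM per kb of exon, stacked by efflux pump, for control and CM-1758 groups of each line; black dots are the summed level in each library. The bars shorten in 253J and TCCSUP, and ABCB1 fills 51.4% and 51.0% of the treated bars of 253J and J82.

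Among sterol and phospholipid exporters, ABCA1 fell and ABCG1 and ABCA7 rose in all 4 lines. ABCA1 loads cholesterol and phospholipid onto apolipoprotein A-I. It went from 483 and 402 CPM to 64.2 and 65.6 CPM in TCCSUP (log2 fold change -2.77 ± 0.23 SE, adjusted p = 2.47e-07, edgeR) and from 240 and 251 CPM to 56.5 and 63.1 CPM in 253J (-2.04 ± 0.23, adjusted p = 3.31e-06). In RT112 the level was low from the start, with 101 and 74 counts in controls and 18 and 24 after treatment (-1.84 ± 0.35, adjusted p = 5.29e-04). In J82 the groups overlapped, at 159 and 96.6 CPM against 96.7 and 65.2 CPM. The J82 value of -0.66 ± 0.22 passed (adjusted p = 0.0244), but it was -0.26 without control replicate 1 and -0.40 without CM-1758 replicate 3, and neither passed. Nor did it pass with library size scaling (-0.52) or with the line fitted alone in edgeR (-0.64) or DESeq2 (-0.64). The fall in TCCSUP exceeded that in J82, with a difference between J82 and TCCSUP of 2.11 ± 0.31 (adjusted p = 2.12e-04).

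ABCG1, which moves sterol to high-density lipoprotein, shares with ABCA1 the known control by the sterol receptors LXR. In J82 it had 3 and 5 counts in controls and 367 and 488 after treatment, 96.9-fold more (log2 fold change 6.60 ± 0.40 SE, adjusted p = 2.72e-08, edgeR). In TCCSUP it went from 2.93 and 1.84 CPM to 27.9 and 22.7 CPM (3.41 ± 0.26), and in 253J from 1.63 and 3.18 CPM to 14.6 and 17.1 CPM (2.73 ± 0.26). RT112 had the highest control level, 66.5 and 73.8 CPM, and the smallest rise, to 182 and 164 CPM (1.30 ± 0.21, adjusted p = 1.71e-04). No groups overlapped, and the interaction had an adjusted p of 4.60e-06.

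ABCA7, a phospholipid exporter named here after its values were seen, went from 6.08 and 9.77 CPM to 70.5 and 72.8 CPM in 253J, 9.05-fold more (log2 fold change 3.18 ± 0.20 SE, adjusted p = 2.60e-08, edgeR). The rise was 3.18-fold in TCCSUP, 2.56-fold in J82 and 2.32-fold in RT112, with no overlap of groups. ABCB4, which flips phosphatidylcholine into bile and is close in sequence to ABCB1, had 20 and 22 counts in J82 controls against 156 and 130 (2.67 ± 0.75, adjusted p = 9.63e-03), and 4 and 0 against 97 and 67 in TCCSUP (5.25 ± 1.05, adjusted p = 6.71e-04). The other lines went the other way without passing, with 24 and 22 counts against 9 and 19 in 253J. In RT112 ABCB4 had 21 and 0 counts against 5 and 0 (-1.79), and the value was -2.77 without control replicate 2. How reads shared by ABCB1 and ABCB4 were assigned is not given in the sources used here. ABCG4, a sterol exporter of brain, stayed under 50 counts in every library and rose in J82, RT112 and TCCSUP. In 253J ABCG4 did not pass (2.20), but it passed as a rise with the line fitted alone in edgeR (2.19). Its treated counts were at least 7.35-fold above the floor in RT112 and 4.19-fold in J82, and its calls in J82 and TCCSUP were each lost without at least 1 library (adjusted p = 0.0119 and 0.0209 with all). ABCG5, a partner of ABCG8 in sterol export, had 0 counts in all 16 libraries, which allows up to 0.098 to 0.119 CPM at 3 counts, and ABCG8 had at most 2 counts.

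**Figure D5:**
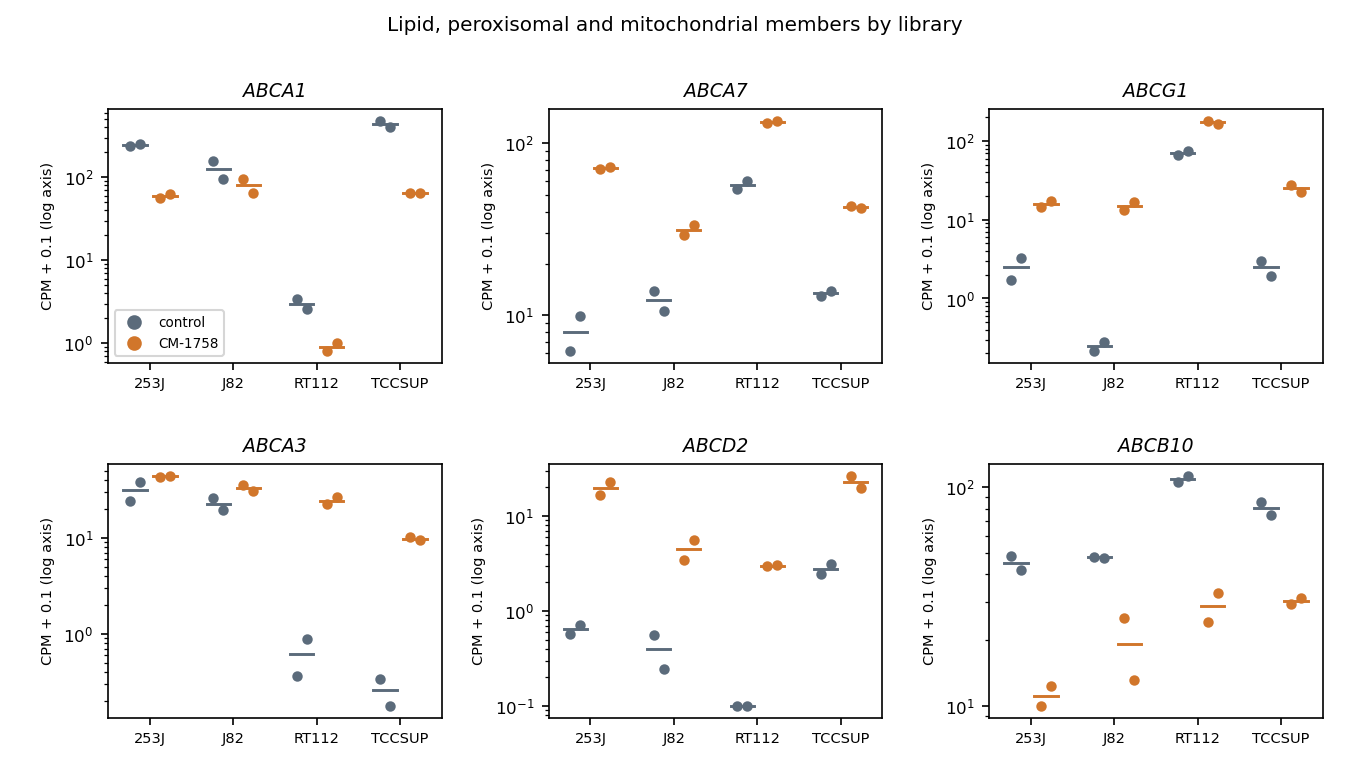
Each panel is 1 member; the vertical axis is CPM + 0.1 on a log axis that differs between panels, dots are libraries, short lines are means of 2, grey is control and orange CM-1758. ABCA1 and ABCB10 move down, ABCA7, ABCG1 and ABCD2 move up in each line, and ABCA3 moves far up only where its control level is under 1 CPM, in RT112 and TCCSUP.

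Of the other lipid transporters of subfamily A, ABCA3, which loads surfactant phospholipid into lamellar bodies, rose far in 2 lines. In RT112 it had 8 and 23 counts in controls and 573 and 691 after treatment (log2 fold change 5.55 ± 0.36 SE, adjusted p = 3.32e-08, edgeR). In TCCSUP it had 6 and 2 against 268 and 239 (5.92 ± 0.46, adjusted p = 1.09e-07). In 253J the levels were 24.4 and 38.6 CPM against 43.1 and 44.5 CPM, and in J82 26.0 and 19.2 against 35.7 and 30.9 CPM, and neither 0.48 ± 0.25 nor 0.56 ± 0.25 passed. Both passed as rises without 1 library, at 0.84 without control replicate 3 in 253J (adjusted p = 0.0309) and 0.79 without control replicate 1 in J82 (adjusted p = 0.0435), and with library size scaling (0.74 and 0.70). The response in 253J differed from that in RT112 by -5.07 ± 0.44 (adjusted p = 1.04e-06) and from that in J82 by -0.08 ± 0.35 (adjusted p = 1.00).

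ABCA12, the lipid transporter of the epidermal barrier, fell in 253J from 35.7 and 37.7 CPM to 7.21 and 9.62 CPM (log2 fold change -2.12 ± 0.35 SE, adjusted p = 1.30e-04, edgeR), a call lost in DESeq2 with all groups (-2.08). In RT112 it rose from 75.7 and 81.7 CPM to 126 and 172 CPM (0.92 ± 0.32, adjusted p = 0.0283), a call lost without either control (0.86 and 0.97) or without CM-1758 replicate 2 (0.68). In TCCSUP 8 and 0 counts became 28 and 36 (2.94 ± 0.82, adjusted p = 7.01e-03), a call lost without control replicate 2 (1.94). The 253J and RT112 responses differed by -3.04 ± 0.48. ABCA13, a large lipid transporter, rose in 253J from 41 and 41 counts to 327 and 499 (3.28 ± 0.41), in TCCSUP from 27 and 17 to 79 and 75 (1.78 ± 0.43) and in J82 from 0 and 0 to 19 and 19, at least 5.93-fold over the floor. Its RT112 value of 1.21 did not pass. It passed as a rise with RLE (1.28) or library size scaling (1.36), in DESeq2 with all groups (1.29) and without CM-1758 replicate 1 (1.75).

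The ABCA5-like members lie in 1 gene cluster, and the products of some are placed in lysosomes. ABCA10 rose in every line, from 0.0724 and 0.192 CPM to 1.15 and 1.86 CPM in 253J and from 0.687 and 1.19 CPM to 5.13 and 8.70 CPM in RT112, with log2 fold changes of 3.49 ± 0.56 and 2.88 ± 0.40. In J82 it was 1.52 ± 0.38, and in TCCSUP 1.31 ± 0.40, a call lost without control replicate 2. ABCA9 had 0 counts in both controls of 253J and TCCSUP and 14, 19, 40 and 55 counts after treatment, at least 5.35-fold and 15.7-fold over the floor (adjusted p = 1.29e-03 and 1.01e-04). In J82 and RT112 ABCA9 did not pass, though it did in RT112 without CM-1758 replicate 1 (2.06, adjusted p = 0.0326). ABCA8 had a count in no library but the treated ones of TCCSUP, with 21 and 33. Gene bounds in this cluster overlap (ABCA5 with ABCA10, ABCA6 with ABCA9), so their reads may be shared.

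Of the 4 peroxisomal and cobalamin transporters, ABCD2 passed the stricter rule in all 4 lines. ABCD2 brings very-long-chain fatty acids into peroxisomes. It had 13 and 16 counts in 253J controls and 414 and 677 after treatment, 36.0-fold more (log2 fold change 5.17 ± 0.40 SE, adjusted p = 2.30e-07, edgeR). In RT112 it had 0 and 0 against 73 and 77 counts, at least 29-fold over the floor (adjusted p = 1.95e-06). In J82 it had 12 and 4 against 93 and 164 (3.88 ± 0.44), and in TCCSUP 60 and 79 against 709 and 494 (3.09 ± 0.34). The groups were far apart in every line, and the rise was larger in 253J than in TCCSUP by 2.08 ± 0.51 (adjusted p = 7.59e-03). ABCD3, also a fatty acid importer of peroxisomes and named after its values were seen, rose in 3 lines, by 2.65-fold in J82, 1.60-fold in TCCSUP and 1.36-fold in 253J, where the call was lost without any 1 of 3 libraries. The cobalamin transporter ABCD4 fell in 253J, J82 and RT112, by 0.74, 1.05 and 0.62 on the log2 scale. Its call in 253J was lost without control replicate 3 (-0.56), that in RT112 without control replicate 1 (-0.57) or CM-1758 replicate 1 (-0.58), and both with library size scaling (-0.47 and -0.48).

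None of the 5 mitochondrial and lysosomal transporters of subfamily B passed as a rise in the reported fit. ABCB10, a mitochondrial inner membrane transporter needed for haem synthesis, fell in all 4 lines. Its levels were 48.5 and 41.7 CPM in 253J controls against 9.86 and 12.1 CPM (log2 fold change -2.03 ± 0.24 SE, adjusted p = 6.51e-06, edgeR), and 105 and 113 against 24.0 and 32.9 CPM in RT112 (-1.94 ± 0.24). They were 47.9 and 47.5 against 25.2 and 13.0 CPM in J82 (-1.32 ± 0.24) and 85.2 and 74.9 against 29.2 and 30.9 CPM in TCCSUP (-1.41 ± 0.23). The groups did not overlap, every call held without any 1 library, and the interaction did not pass (adjusted p = 0.164). The porphyrin transporter ABCB6, named after its values were seen, fell in 253J (-1.63 ± 0.17) and J82 (-0.86 ± 0.17) and not in TCCSUP (-0.27 ± 0.17) or RT112 (-0.02 ± 0.21), and its interaction had an adjusted p of 4.31e-04. ABCB9, a lysosomal peptide transporter, passed in no line, but rose in RT112 with library size scaling (0.61) and with the line fitted alone (0.47).

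Of the 4 ribosome and translation factors, ABCE1 and ABCF2 fell in all 4 lines by modest amounts. ABCE1 splits ribosomes after termination. In RT112 it went from 99.2 and 111 CPM to 48.3 and 46.2 CPM, 2.22-fold lower (log2 fold change -1.15 ± 0.17 SE, adjusted p = 5.58e-05, edgeR). It fell by 0.74 in 253J, 0.66 in J82 and 0.68 in TCCSUP on the log2 scale. The J82 call was lost without control replicate 3 (-0.36) and with the line fitted alone in edgeR (-0.64), and that in TCCSUP under library size scaling (-0.36). ABCF2 fell by 0.70 in TCCSUP, 0.56 in RT112, 0.55 in J82 and 0.45 in 253J, and its calls in the last 3 lines were each lost without at least 1 library, with -0.22 in 253J without control replicate 2 and -0.33 in J82 without control replicate 3. The 253J call was also lost with library size scaling (-0.17), both other filter settings (-0.44 and -0.36) and the replicate block (-0.19). That in J82 was lost with library size scaling (-0.40) and with the line fitted alone in edgeR (-0.54) or DESeq2 (-0.53). ABCF1, which binds the initiation factor eIF2, fell in J82 from 196 and 196 CPM to 138 and 129 CPM (-0.56 ± 0.14, adjusted p = 4.17e-03) and did not pass in the other lines. The J82 call of ABCF1 was lost in edgeR with the line fitted alone (-0.54). In RT112 ABCF1 passed as a fall with the line fitted alone in edgeR (-0.33) or DESeq2 (-0.32) and with the replicate block (-0.33). ABCF3, named after its values were seen, moved the other way, with rises in 253J from 48.4 and 44.1 CPM to 121 and 125 CPM (1.41 ± 0.14) and in TCCSUP (0.38 ± 0.14), the latter lost without any 1 of 3 libraries. In J82 its value of 0.33 did not pass. It passed there as a rise with RLE (0.42) or library size scaling (0.47) and in DESeq2 with all groups (0.42). The same held with at least 10 counts in every library (0.44) and without CM-1758 replicate 1 (0.57).

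The remaining lists hold members with known roles in the liver and pancreas, most of them near the floor here. ABCB11, the bile salt export pump, was at 7.19 and 6.13 CPM in RT112 controls and 2.43 and 4.31 CPM after treatment. It had at most 9 counts in any library of the other lines and passed in no line in the reported fit. With the line fitted alone it passed as a fall in RT112 in edgeR (-0.98) or DESeq2 (-0.97). ABCC8, the sulfonylurea receptor of the pancreatic beta cell, had 0 counts in both controls of 253J, RT112 and TCCSUP and between 7 and 24 counts after treatment. Its bounds were at least 3.98-fold, 9.09-fold and 3.10-fold, and in J82 it had 3 to 9 counts and did not pass. The pseudogene ABCC13 had 0 to 3 counts in the controls of all lines. It had 165 and 166 counts in treated J82, 103-fold more with a 95% counting interval of 35.1 to 504, and 40 and 58 in treated RT112, 56.9-fold more with an interval of 15.3 to 476. In treated TCCSUP it had 18 and 17 counts, at least 5.75-fold over the floor, and in 253J it was at 0 in every library. ABCB5, an efflux transporter of melanocyte lineage cells, had at most 7 counts in a control library and at most 27 in a treated one. It passed in no line in the reported fit. In TCCSUP it passed as a rise without control replicate 2 and with library size scaling (3.01). It also did so with the line fitted alone in edgeR (2.68) or DESeq2 (2.76). ABCC6, which shares sequence with its pseudogenes, fell in J82 (-1.43 ± 0.41), a call lost without control replicate 1 (-1.24) or CM-1758 replicate 3 (-1.25).

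Genes around the family were read from lists of general knowledge, and their counts stand beside the shares of all tested genes, of which 28.8% rose and 22.4% fell in 253J, 24% and 18.5% in J82, 27.4% and 20.2% in RT112 and 32% and 22.1% in TCCSUP. Of 3 ABC proteins under other symbols, TAP1, a subunit of the peptide transporter that loads class I molecules, was named after its values were seen. It had 5310 and 4868 counts in 253J controls and 997 and 1261 after treatment, and fell in all 4 lines by 2.21, 1.76, 0.77 and 2.08 on the log2 scale in 253J, J82, RT112 and TCCSUP. Its partner TAP2 fell by 2.16 in 253J, 1.79 in J82 and 1.88 in TCCSUP, and -0.52 ± 0.26 did not pass in RT112. CFTR, a chloride channel of the ABC family, had at most 24 counts in any library and rose in 253J only, from 0 and 2 counts to 7 and 17.

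Of 8 LXR target genes outside the family, 3 rose and 3 fell in both 253J and TCCSUP, 3 and 2 in J82 and 2 and 3 in RT112. The apolipoprotein gene APOE had the largest mean change, with rises of 2.99 ± 0.23, 3.63 ± 0.24 and 2.31 ± 0.22 in 253J, J82 and RT112 and a fall of 0.65 in TCCSUP. Of 13 transcription factors known to control ABC genes, 6 rose and 3 fell in TCCSUP, 4 and 3 in 253J, 4 and 1 in J82 and 2 and 4 in RT112. The bile acid receptor NR1H4 had the largest mean change, with 0 and 0 counts in RT112 controls against 25 and 18, and 7 and 5 against 59 and 46 in TCCSUP. Of 15 uptake and multidrug and toxin extrusion (MATE) carriers of the SLC families, 5 rose and 3 fell in RT112, 3 and 5 in TCCSUP, 3 and 2 in J82 and 1 and 6 in 253J. SLCO1B3, an organic anion uptake carrier, had the largest mean change, with 2 and 10 counts in RT112 controls against 45 and 88, and 1247 and 952 against 653 and 674 in TCCSUP, where it did not pass.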

How the data were processed

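The 16 libraries held RNA of 4 bladder cancer lines with 2 libraries per line and treatment. The authors deposited whole-number counts for each of 35993 gene symbols, used as given. How reads were counted is not given in the sources used here. In the table the value 2 is commoner (18814 values) than 1 (13099) or 3 (13197), so a count may not be 1 read or fragment, and floors, bounds and counting intervals hold for the counts as deposited. The submitters' processing notes name HISAT2, StringTie and GRCh37, with no version and no order, and the paper describes stranded libraries. The strand setting of the counting is not given in the sources used here, and no coordinates of the deposited table are used.

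The filter filterByExpr kept 21297 genes. Library sizes were scaled by TMM, and edgeR 4.0.16 (R 4.3.3) gave quasi-likelihood F tests with 1 mean for each of the 8 groups. P-values were adjusted by Benjamini-Hochberg over all tested genes within each contrast. A member rose or fell at an adjusted p under 0.05. The stricter rule, from the study's methods, asked for a change of more than 2 on the log2 scale in either direction and for an adjusted p under 0.01. The standard error (SE) was taken as the size of the change over the square root of its F. The response across lines and the control level across lines were F tests of 3 contrasts each. CPM are counts per 1e6 counts of the TMM-scaled library, and levels per length are CPM per kb of merged exon from GENCODE v29, used for lengths only. Counts of 3 or fewer per library were taken as the floor, and a fold against a control group at 0 is given as a bound against 3 counts in each control library. For a group with a count but with no library over 3 counts, the ratio has an exact 95% interval. Intervals and floors cover counting error only.

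Total counts ran from 22506431 to 32537104 per library. Alternatives were RLE and library size scaling, both filter settings, DESeq2 1.42.0 and edgeR with each line alone, DESeq2 with all groups, a replicate block, an adjusted p under 0.01 and leaving out each library.

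The labels do not say whether equal replicate numbers mark pairs. Deviations of same-numbered control and treated libraries correlated at 0.22 in J82, 0.043 in RT112, 0.017 in TCCSUP and 0.053 for the 1 shared number of 253J. The numbers were not taken as pairs, though such correlations cannot exclude pairing. Of the 9 calls gained with the replicate block, those of ABCA3, ABCC1, ABCC4, ABCC5 and ABCG2 in J82 may depend on this choice. The members and the lists were chosen with earlier results of these data known. Values are given for the 9 drug efflux members, for members past the stricter rule in at least 2 lines, for members that rose in one line and fell in another, for the 3 with the highest control level per length and for 1 example of each role list. Other members named were chosen after their values were seen. For 2 members and 1 marker no values are reported here, though counts and sums over lists include them. Promoter sequences are RefSeq windows of GRCh38.p14, in which 35 of the 46 members were matched.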

Additional observations from a re-analysis of the deposited data

Results flagged for a closer look

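For 26 of the 43 tested members the response to CM-1758 differed between the 4 lines by the interaction F test of edgeR (3 contrasts, Benjamini-Hochberg adjusted p under 0.05 over all tested genes), where 51.9% of all tested genes did so. Doses and lines cannot be told apart, and no explanation was tested.

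Among the efflux pumps the adjusted p was 2.21e-08 for ABCB1, 2.25e-06 for ABCC4, 4.38e-04 for ABCG2, 5.01e-04 for ABCC10, 2.12e-03 for ABCC2, 9.32e-03 for ABCC11 and 4.55e-02 for ABCC5. ABCC11 passed the filter only through treated groups. ABCC5 is a case where no single line passed in the reported fit, with log2 fold changes of 0.35 in TCCSUP, 0.12 in RT112, -0.32 in 253J and -0.35 in J82. The fitted value of ABCB1 in TCCSUP rests on controls at 0, but the adjusted p of the difference between J82 and RT112, where every library had counts, was 1.18e-06 (difference -4.86 ± 0.38).

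Among the lipid transporters it was 4.60e-06 for ABCG1, 6.63e-05 for ABCA7, 4.45e-04 for ABCA1, 3.11e-03 for ABCB4, 2.54e-07 for ABCA3, 1.38e-04 for ABCA12, 8.72e-03 for ABCA13, 1.79e-04 for ABCA5, 2.95e-03 for ABCA9 and 2.54e-02 for ABCA10. ABCA1, ABCA7, ABCA10 and ABCG1 differed in size and not in direction.

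Among the peroxisomal and cobalamin transporters it was 2.63e-03 for ABCD2, 5.15e-04 for ABCD3 and 8.96e-03 for ABCD4, and 4.31e-04 for ABCB6 of the mitochondrial ones. Further values were 2.19e-04 for ABCF3, 2.24e-02 for ABCC6 and 8.09e-03 for ABCC8, the last with 24 counts or fewer in every library. ABCC8 also passed the filter only through treated groups.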

How the results depend on the processing

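No member changed direction with a call under any setting tried, and the counts of members higher, lower, past the stricter rule, differing in response (26) and differing in control level (37) stayed within 1.5 times of the reported ones except as follows. With at least 10 counts in every library, which tests fewer members by construction, 7 members rose in 253J, 6 in RT112, 6 in TCCSUP and 5 in J82, the stricter rule was passed by 4, 0, 1 and 0 in the same order, 14 differed in response and 22 in control level. With each line fitted alone in edgeR, 5 members fell in J82. At an adjusted p under 0.01, 6 fell in J82 and 4 in RT112. With library size scaling, 5 fell in TCCSUP. With the replicate block, 8 passed the stricter rule in 253J, where 14 did in the reported fit. Apart from the construction named, the cause was not tested.

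Leaving out 1 library at a time gave 13 to 16 members higher, 9 to 11 lower and 9 to 12 past the stricter rule in 253J, 14 to 16, 6 to 7 and 8 to 11 in TCCSUP, 11 to 15, 5 to 7 and 6 to 8 in RT112 and 9 to 15, 7 to 11 and 4 to 5 in J82. The low ends of 9 past the stricter rule in 253J and 5 lower in RT112 came without control replicate 2 of 253J and CM-1758 replicate 2 of RT112. The response differed for 24 to 32 members and the control level for 36 to 38. Of 93 calls of a member in a line, 25 were lost without at least 1 library of that line, and of 79 values that did not pass, 19 passed without at least 1.

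With the replicate block, of 172 values of a member in a line 160 kept their side of the threshold, 3 calls were lost and 9 were gained. With only 2 libraries in a group, the estimate of spread leans on other genes, and members under about 10 counts carry wide errors. In every line more members had groups without overlap than had a call, so non-overlap is described and does not back a call.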

Other observations

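Members not described above are given here, chosen after their values were seen. ABCA2, an endolysosomal lipid transporter, was at 35.6 and 35.5 CPM in TCCSUP controls against 58.7 and 60.0 CPM after CM-1758 and rose there (log2 fold change 0.74 ± 0.23 SE, adjusted p = 0.0156, edgeR), a call lost without any 1 library. In RT112 it passed as a rise only under other settings. These were at least 10 counts in every library (0.60), the replicate block (0.48) and the line fitted alone in edgeR (0.48) or DESeq2 (0.49). In 253J it did so with library size scaling (0.70). ABCA5 went from 1.92 and 3.06 CPM to 10.6 and 18.0 CPM in 253J (2.53 ± 0.25, adjusted p = 1.10e-06) and from 27.6 and 27.3 CPM to 60.9 and 61.8 CPM in RT112 (1.16 ± 0.21), while TCCSUP, with 94.2 and 76.8 CPM in controls, gave 0.22 ± 0.20 and did not pass. In J82 ABCA5 rose (0.56 ± 0.20), a call lost without any 1 of 3 libraries, with 0.45 without control replicate 3.

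ABCA6 rose in 253J only, on 0 and 2 counts against 12 and 18, a ratio of 14.7 with a 95% counting interval of 3.73 to 127, and the call was lost without control replicate 2 or CM-1758 replicate 3. ABCB8, a mitochondrial transporter, fell in RT112 (-0.36 ± 0.14, adjusted p = 0.0474), a call lost under most settings. ABCA4, the retinal transporter, and ABCC9, a sulfonylurea receptor of muscle, passed in no line, with at most 150 and 96 counts in a library. ABCC12 was not tested and had at most 22 counts, in a treated 253J library.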
